A study of Homo sapiens with 4 samples.

Results

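Histone-modifying enzymes were followed in A549 cells, a widely used line from a human lung carcinoma, with and without a dominant-negative FOS protein switched on. The members were the protein-coding genes whose symbols mark them as lysine demethylases (KDM1 to KDM8), lysine methyltransferases (KMT2, KMT5 and SETD genes), deacetylases (HDAC), sirtuins (SIRT1 to SIRT7) or lysine acetyltransferases (KAT2 to KAT8), plus EP300, CREBBP, DOT1L and the Polycomb genes EZH1, EZH2, EED and SUZ12. This gave 69 of the 58051 listed genes, 31 of them writers, which add acetyl or methyl groups, and 38 erasers, which remove them. A low-count filter left 67 members for testing, 31 writers and 36 erasers. The other two, KDM4E and KDM4F, had 3 counts in 1 minus Dox library and 0 counts in any library, respectively, and a count of 0 allows up to 3 counts per library for counting error alone.

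The design holds 2 groups of 2 polyA RNA-seq libraries. All 4 come from A549 cells in which an inducible A-FOS gene had been inserted by piggyBac transposase at random places in the genome. The minus Dox group had no treatment, and the plus Dox group had 1 µg/mL doxycycline in its medium. A-FOS pairs with JUN proteins and keeps them off DNA, which lowers the activity of AP-1, the dimeric factor made of FOS and JUN proteins. Doxycycline and A-FOS induction cannot be told apart in this design, because no group received doxycycline without A-FOS. The time of treatment, and whether the cells are 1 clone or a pool, are not stated by the labels. Nor do the labels say that both libraries of a group are from different cultures, so the p-values measure only the spread between these libraries, which may be technical.

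Chromatin is marked by acetyl and methyl groups on the lysines of histone tails. Acetyltransferases and the KMT2 family act mainly at active enhancers and promoters, and Polycomb repressive complex 2 (PRC2) methylates H3K27 at silenced genes. Deacetylases and demethylases reverse these marks, some of them inside large corepressor complexes. AP-1 recruits the acetyltransferases EP300 and CREBBP to the enhancers it binds. The measurements below are of transcripts and say nothing of enzyme activity or of the marks.

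Total counts ranged from 31104964 to 40526912 per library. Levels are CPM, counts divided by the TMM-scaled library size in units of 1e6 reads. Reads of FOS, which may include those of A-FOS, lay at 1.36 and 1.52 CPM in the minus Dox libraries and at 48.6 and 51.0 CPM in the plus Dox libraries. FOXA1, the other factor of the series, had 42.6 ± 0.314 and 41.3 ± 0.0275 CPM (SD, n = 2). The epithelial keratins KRT8 and KRT18 were abundant in both groups, at 5280.1 and 3656 CPM and at 2807 and 2151 CPM. Of 6 epithelial markers 5 were lower in plus Dox, KRT7 from 4544 to 526 CPM and KRT19 from 122 to 21.1 CPM among them, and the part of this shift in the results below was not tested. Summed levels of 5 leukocyte markers were 2.69 and 2.13 CPM in minus Dox and 1.48 and 1.19 CPM in plus Dox, with CD3E at 0 in every library. The summed levels of 4 endothelial markers (0.805 to 1.63 CPM) and 5 fibroblast markers (5.60 to 7.19 CPM) were low as well, and DCN did not exceed 0.0296 CPM in any library.

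Changes among the enzymes were common and small. With doxycycline 24 of the 67 tested members rose and 21 fell, at a Benjamini-Hochberg adjusted p under 0.05 in the quasi-likelihood test of edgeR. That is 67.2% of the members, against a background of 56.9% of all 18046 tested genes (28.4% higher and 28.4% lower) and 65.5% of the tested protein-coding genes. The share of members called therefore lay near the background. Only 1 member, SIRT4, passed with a change of at least 2-fold, or 1.49% of the members, against 12.7% of all tested genes and 12.1% of the protein-coding ones. The median absolute log2 fold change was 0.24 over the members, 0.36 over all tested genes and 0.34 over protein-coding genes. The libraries of the 2 groups did not overlap for 52 members, or 77.6%, beside 77.0% of all tested genes. In bulk RNA a lower level in every cell and fewer cells with the transcript cannot be told apart.

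**Figure D1:**
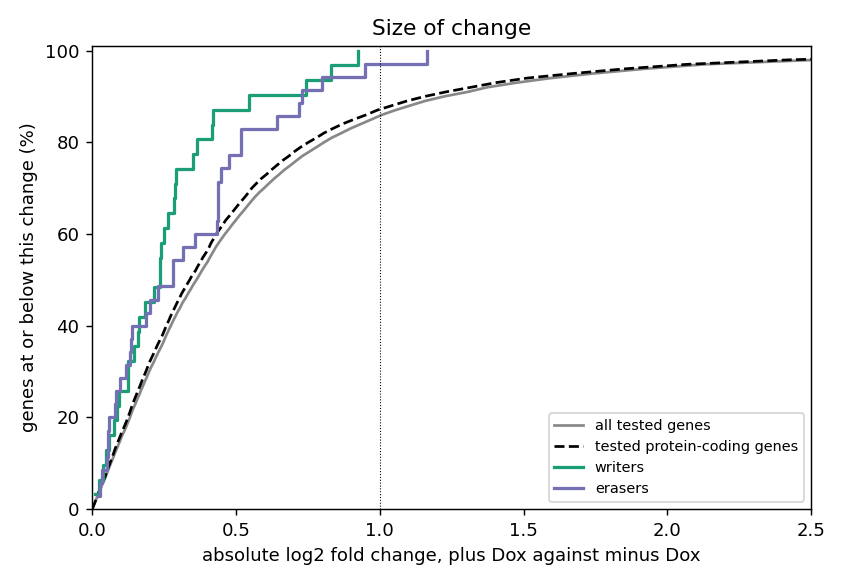
Cumulative share of genes (vertical axis, percent) against the absolute log2 fold change between plus and minus Dox (horizontal axis) for writers, erasers, all tested genes and tested protein-coding genes, with a dotted line at 2-fold. The writer curve ends at 0.92 and the eraser curve at 1.16, without the Y-linked KDM5D. Of all tested genes 12.7% were called with a change beyond the dotted line.

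The direction of the small changes rests on the scaling. With library size as the only scaling, the median of all tested genes lay at 0.22 on the log2 scale, and 41 members were then higher and 9 lower, against 43.6% and 16.2% of all tested genes. With the trend of GC content, length and abundance removed, 34 were higher and 19 lower (15 and 9 writers, 19 and 10 erasers), against 29.8% and 25.1% of all tested genes. The higher share of all called genes was 50.0% under TMM and 72.9% under library size only. The share called in either direction was 59.8% under library size only, 54.9% with that trend removed and 47.8% in DESeq2. All changes below are therefore relative to the median gene. A core of 24 members, 15 higher and 9 lower, had the same call in TMM scaling and in all 10 other settings tried, which include library size only, DESeq2 and leaving out each library. This is 35.8% of the tested members, against 31.0% of all tested genes (17.2% higher and 13.8% lower). The core comprised KAT2B, EP300, CREBBP, SUZ12, KMT5B, KMT2C, SETD3, SETD7, HDAC1, HDAC2, SIRT1, SIRT2, SIRT4, KDM6A and KDM7A as higher. DOT1L, KAT2A, SETD6, HDAC4, HDAC7, SIRT6, SIRT7, KDM1A and KDM3A were lower.

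Writers and erasers each held calls in both directions. Of 31 writers 11 rose, 11 fell and 9 did not pass, and of 36 erasers 13 rose, 10 fell and 13 did not pass. The median log2 fold change was 0.0081 for writers and 0.053 for erasers, beside 0.0012 for all tested genes. The writer median changed sign without minus Dox replicate 1 (−0.016) and without plus Dox replicate 1 (−0.021). The eraser median was 0.0074 without minus Dox replicate 1, and ranged up to 0.077 without minus Dox replicate 2. Without plus Dox replicate 1 only 7 writers were lower, and without plus Dox replicate 2 only 8 erasers were higher. A test over the list was not made, since the members were chosen with results of these data known.

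**Figure D2:**
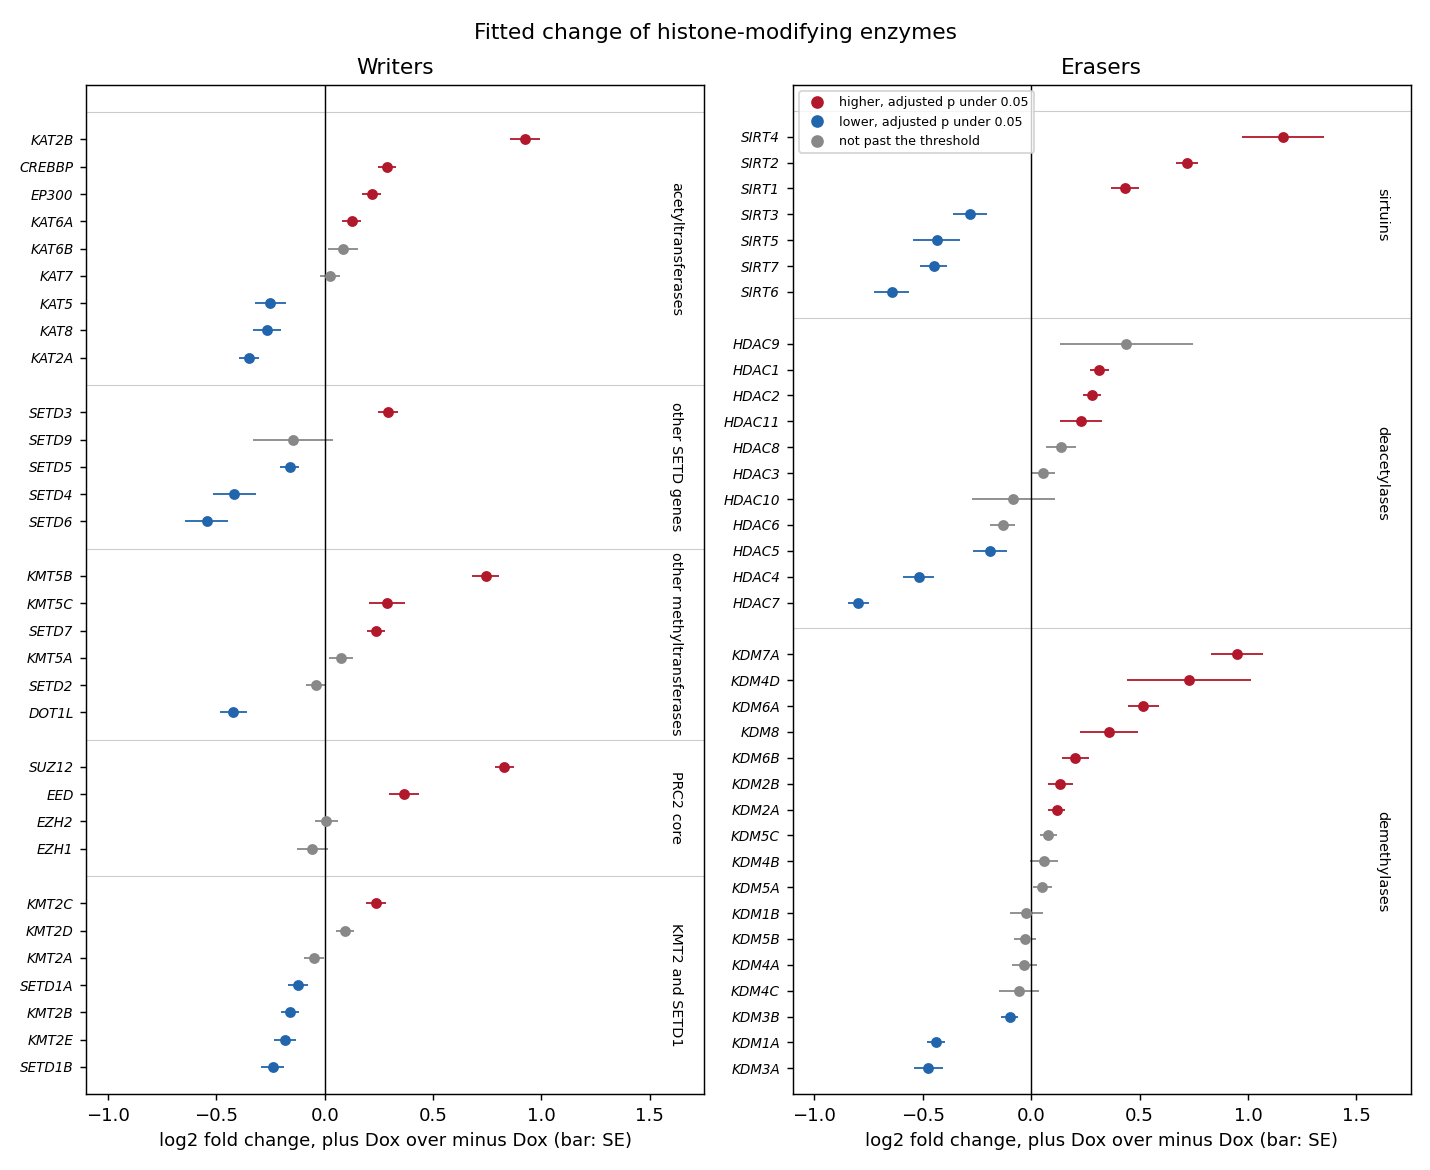
Fitted log2 fold change of plus over minus Dox (horizontal axis; bars are standard errors) for each tested writer and eraser, grouped by enzyme class and coloured by call with TMM scaling. The Y-linked KDM5D is not drawn. Each class except the PRC2 core holds members called in both directions. With library size only the points move to the right by about 0.22, so that the KMT2 and SETD1 class then holds no lower call.

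Summed over members and divided by exon length, the transcripts of methyl writers stood higher against those of methyl erasers in plus Dox. Most of this difference was gone once SUZ12 and SETD3 were left out. Methyltransferases summed to 213 and 216 CPM per kilobase of exon in the minus Dox libraries and to 230.0 and 228 in the plus Dox libraries. Demethylases summed to 164 and 167 without doxycycline and to 163 and 160.3 with it. The ratio of methyl writers to erasers was thus 1.29 and 1.30 without doxycycline and 1.41 and 1.42 with it. SUZ12, which is not itself catalytic, went from 15.7 to 27.9 CPM per kilobase and SETD3, whose known substrate is actin, from 19.9 to 24.3. Without both, a choice made after the values were seen, the methyl writers summed to 177 and 181 in minus Dox against 177 and 176 in plus Dox. Their ratio to the erasers was then 1.08 and 1.09 against 1.09 and 1.10. Leaving out genes that rose was bound to shrink the difference, and EED and the SETD genes that fell were kept. For acetyl marks the ratio lay on the opposite side, at 0.855 and 0.858 without and 0.800 and 0.799 with doxycycline. Deacetylases and sirtuins summed to 122 and 127 CPM per kilobase without it and to 131 and 130.1 with it. Of these, SIRT2, mainly a cytoplasmic tubulin deacetylase, went from 10.6 to 17.4 CPM per kilobase, and the mitochondrial SIRT4 from 1.76 to 3.92. HDAC1 went from 26.7 to 33.2 and HDAC7 from 15.4 to 8.84. In the group means SIRT2 and SIRT4 together rose by more than this sum did. The shift of the acetyl ratio is therefore not one of histone enzymes alone. It was not recomputed without SIRT2 and SIRT4, which were picked after the values were seen. In neither ratio over all members did the groups overlap, and neither depends on the library scaling. These sums weight abundant genes most and are descriptions, with no test.

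**Figure D3:**
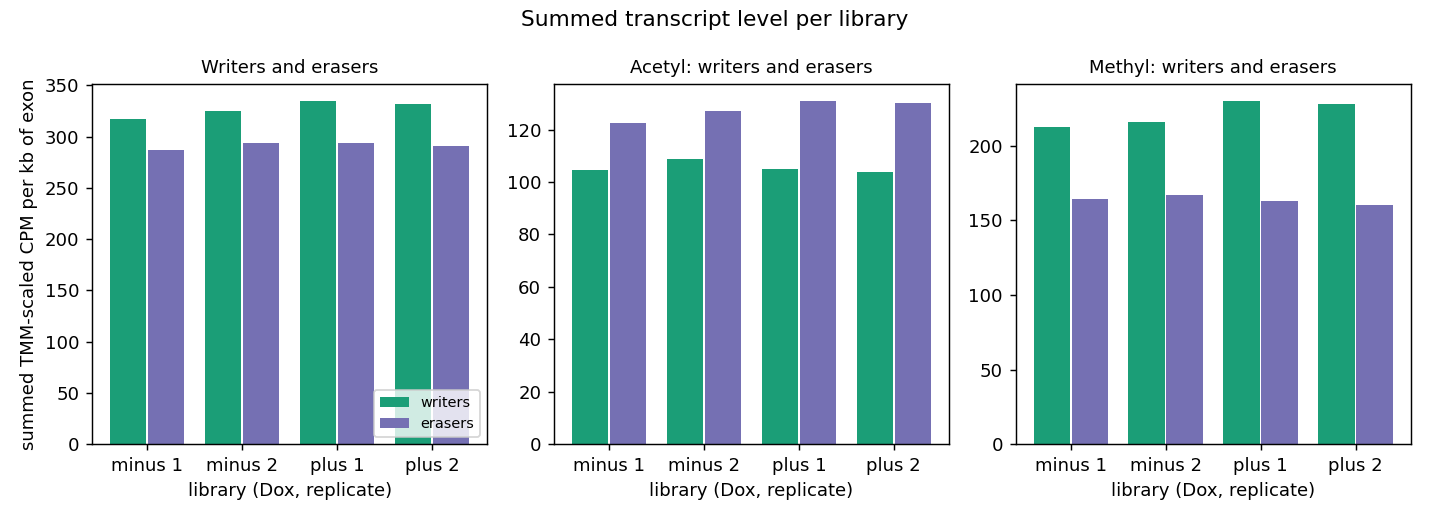
Summed CPM per kilobase of exon (vertical axis, from 0) in each of the 4 libraries for writers and erasers together, for the enzymes of acetyl marks and for those of methyl marks. Methyl writers stand at 213 and 216 in minus Dox and at 230.0 and 228 in plus Dox. This difference was not seen without SUZ12 and SETD3, which were picked after the values were seen.

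Per kilobase of exon the most abundant members without doxycycline were KAT2A (43.6), KDM1A (31.8), KDM3B (30.1), KDM5C (27.3) and HDAC1 (26.7 CPM per kilobase). Pseudogenes named after KMT5A, KMT2C, HDAC1, KDM3A, KAT7 and SETD6 are among the listed genes, at no more than 0.690 CPM in a group mean, and how reads shared with them were counted is not stated, which leaves the levels of these 6 genes uncertain. The least abundant of the tested members were HDAC9 (0.0700), KDM4D (0.431) and HDAC10 (0.650 CPM per kilobase). Exon length here is the union of all annotated exons of a gene, so genes with many rare exons are understated. Over writers the median level was 9.32 and over erasers 4.45 CPM per kilobase, beside 5.13 for tested protein-coding genes.

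Of the acetyltransferases, EP300 and CREBBP, the paralogous coactivators that AP-1 binds, rose together. EP300 had 146 and 153 CPM in the minus Dox libraries and 175 and 172 CPM in the plus Dox libraries. CREBBP had 200.2 and 203 CPM without and 252 and 239.5 CPM with doxycycline. Neither gene's groups overlapped, and the log2 fold changes were 0.22 and 0.29 (edgeR adjusted p = 4.23e-05 and 1.25e-07). Both were larger with the trend of GC content, length and abundance removed, at 0.47 and 0.58.

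KAT2A and KAT2B, also called GCN5 and PCAF, are exchangeable catalytic subunits of the SAGA-type acetyltransferase complexes and moved in opposite directions. KAT2B (ENSG00000114166, chromosome 3, 20040023 to 20154404 in hg38) had 30.2 and 26.4 CPM in minus Dox and 55.3 and 52.0 CPM in plus Dox. Its log2 fold change of 0.92 (SE 0.07, edgeR adjusted p = 4.67e-14) was the largest among the writers with TMM scaling. KAT2A went from 157 and 171 CPM to 126 and 132 CPM, a log2 fold change of −0.35 (edgeR adjusted p = 3.18e-08), with no overlap between the groups. Per kilobase of exon, KAT2A stood at 43.6 against 5.02 for KAT2B without doxycycline, and at 34.2 against 9.52 with it. KAT2A thus remained the more abundant of the pair.

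Of the MYST family acetyltransferases, KAT5 (TIP60) and KAT8 (MOF) fell by 0.25 and 0.27 on the log2 scale, KAT6A rose by 0.12, and KAT6B (0.08) and KAT7 (0.02) did not pass. KAT6B (0.22) and KAT7 (0.17) were called higher after the trend correction. In all, 4 of 9 acetyltransferases rose and 3 fell, with a median of 0.085. With library size only KAT5 (−0.03) and KAT8 (−0.05) no longer passed. KAT5 also lost its call without plus Dox replicate 1 (edgeR adjusted p = 0.0586), and KAT8 without plus Dox replicate 2 (0.0674). KAT6A lost its call without minus Dox replicate 1 (0.0563) or either plus Dox library (0.0641 for replicate 1 and 0.316 for replicate 2), and KAT6B gained one without minus Dox replicate 2 (edgeR adjusted p = 0.0384). The reads of KAT5 are uncertain, because 38.6% of its exon bases lie opposite RNASEH2C.

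In PRC2 the scaffold subunit SUZ12 rose in every setting, and the catalytic subunits EZH1 and EZH2 did not pass with TMM scaling. SUZ12 (ENSG00000178691, chromosome 17, 31937018 to 32001045) had 104 and 102 CPM without and 186 and 179 CPM with doxycycline. Its log2 fold change was 0.83 (SE 0.04) with an edgeR adjusted p of 3.35e-18, the lowest of any member. It was 0.56 after the correction for GC content, length and abundance. EED, which binds the methylated product of the complex, had 33.0 and 30.7 CPM in minus Dox and 42.5 and 39.3 CPM in plus Dox, a log2 fold change of 0.37 (edgeR adjusted p = 2.03e-05).

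The rise of EED turned to a fall with the trend of GC content, length and abundance removed, at −0.48 (edgeR adjusted p = 2.83e-10). The GC content of its longest annotated transcript is 33.0%, against a median of 48.8% over all tested genes. The direction of EED is therefore not settled by these data. EZH2, the main H3K27 methyltransferase of dividing cells, had 66.2 and 68.2 CPM without and 68.0 and 67.2 CPM with doxycycline, a log2 fold change of 0.01 (SE 0.05). EZH1, its relative of resting cells, had 38.7 and 46.4 CPM and 43.0 and 38.9 CPM. The groups overlapped for both EZH genes, though EZH1 passed as lower without minus Dox replicate 1 (−0.19, edgeR adjusted p = 0.0112) and EZH2 as higher with library size only (0.22).

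The KMT2 and SETD1 genes, most of which encode H3K4 methyltransferases of COMPASS complexes, had small changes with TMM scaling. Of 7 tested, KMT2C rose and SETD1B, KMT2E, KMT2B and SETD1A were lower, with log2 fold changes from −0.24 to 0.24. KMT2C, an enhancer monomethyltransferase, went from 92.2 ± 0.575 to 109 ± 3.73 CPM (SD, n = 2) with an edgeR adjusted p of 5.61e-05. Its paralog KMT2D (0.09) and the leukemia gene KMT2A (−0.05) did not pass. With library size only none of the class was lower: SETD1B lay at −0.02, KMT2E at 0.03, KMT2B at 0.06 and SETD1A at 0.09, none past the threshold, and KMT2D (0.31) and KMT2A (0.17) were called higher. After the correction for GC content, length and abundance KMT2D was higher by 0.42 (edgeR adjusted p = 3.87e-20) and KMT2A by 0.19, and KMT2B (0.04) and SETD1A (−0.00) did not pass. KMT2B lost its call without plus Dox replicate 2 (edgeR adjusted p = 0.0510) and KMT2E without plus Dox replicate 1 (0.161). SETD1A lost it on leaving out minus Dox replicate 2 (0.0636) or either plus Dox library (0.171 and 0.130). KMT2D passed as higher without minus Dox replicate 2 (7.90e-06) or plus Dox replicate 2 (edgeR adjusted p = 0.0493).

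Of 6 methyltransferases of other lysines 3 rose and 1 fell. KMT5B, which makes H4K20 di- and trimethylation, had 31.9 and 30.4 CPM in minus Dox and 51.0 and 53.2 CPM in plus Dox (log2 fold change 0.74, SE 0.06, edgeR adjusted p = 2.33e-12). KMT5C, its paralog, rose from 20.05 ± 0.431 to 24.4 ± 2.63 CPM (SD, n = 2) but lost the call without plus Dox replicate 2 (edgeR adjusted p = 0.226). The H4K20 monomethyltransferase KMT5A did not pass (0.08), but was called higher after the trend correction (0.19). SETD7, an H3K4 monomethyltransferase with many other substrates, rose by 0.24. DOT1L, the H3K79 methyltransferase, was the only one of these 6 that fell, from 57.2 and 57.2 CPM to 40.6 and 45.0 CPM (log2 fold change −0.42, edgeR adjusted p = 2.72e-07), and it was lower in every setting tried. SETD2, which makes H3K36 trimethylation, did not pass (−0.04).

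The other SETD genes act on proteins other than histones or have no settled substrate. SETD6, a methyltransferase of the NF-kB subunit RELA, fell from 17.5 and 15.2 CPM to 11.6 and 10.6 CPM (log2 fold change −0.55). SETD4 fell from 15.5 and 15.3 CPM to 10.9 and 12.3 CPM (−0.42), and SETD5 fell by 0.16. The actin histidine methyltransferase SETD3 rose by 0.29, and SETD9 did not pass (−0.15). With library size only SETD6 was still lower (−0.33), SETD4 did not pass (−0.20, edgeR adjusted p = 0.0816) and SETD5 lay at 0.05. SETD5 lost its call without plus Dox replicate 1 (0.0643), and SETD9 passed as lower without minus Dox replicate 2 (−0.46, edgeR adjusted p = 0.0269).

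**Figure D4:**
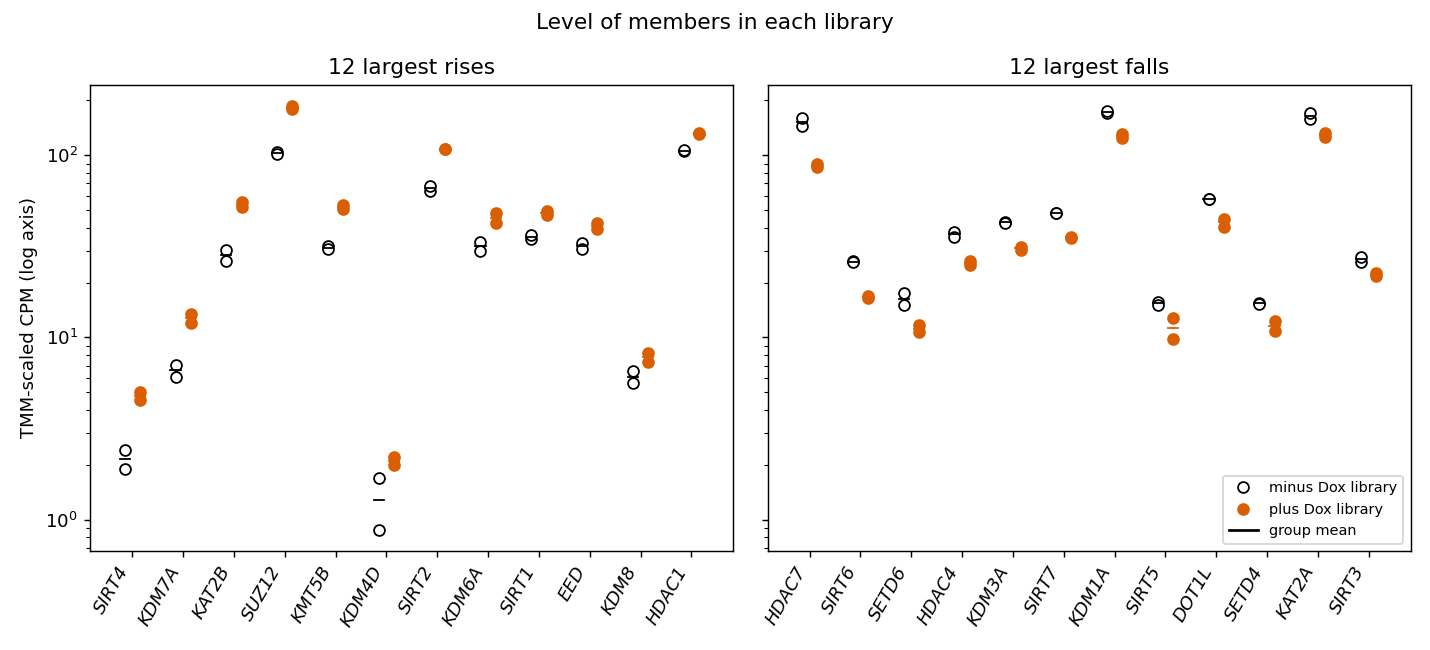
TMM-scaled CPM on a log axis in each library for the 12 members with the largest rise and the 12 with the largest fall among those called; open circles are minus Dox, filled circles plus Dox and short lines group means. In all 24 the libraries of a group lie on 1 side of the other group, which the choice of called members largely fixes. Of all tested genes 77.0% also do not overlap. SUZ12 lies at 186 and 179 CPM above 104 and 102 CPM, and HDAC7 at 86.2 and 89.3 CPM below 145 and 159.6 CPM.

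Demethylases were the largest class, and 7 of 18 tested rose while 3 fell, with a median of 0.055. KDM7A, a demethylase of H3K9 and H3K27 (ENSG00000006459, chromosome 7, 140084746 to 140177035), rose most of those past the threshold. It had 7.10 and 6.08 CPM without and 13.4 and 12.02 CPM with doxycycline, a log2 fold change of 0.95 (SE 0.12, edgeR adjusted p = 1.28e-08) that was 0.56 once the trend correction was applied. KDM4D, a testis-enriched H3K9 demethylase, had 1.69 and 0.880 CPM against 2.22 and 2.00 CPM (log2 fold change 0.73). Its call rests on few counts, 33 to 78 per library, and was lost without minus Dox replicate 2 (0.31, edgeR adjusted p = 0.412) or plus Dox replicate 1 (0.117).

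The H3K27 demethylases KDM6A (UTX) and KDM6B (JMJD3), which act against PRC2, both rose. KDM6A had 33.6 and 30.0 CPM in minus Dox and 48.4 and 42.3 CPM in plus Dox (log2 fold change 0.52, edgeR adjusted p = 1.09e-07). KDM6B had 40.1 and 38.6 CPM and 45.2 and 45.3 CPM (0.20, edgeR adjusted p = 0.00577), a call lost without plus Dox replicate 1 (0.0625) or plus Dox replicate 2 (0.0687). KDM8 had 6.51 and 5.63 CPM without and 7.36 and 8.17 CPM with doxycycline (log2 fold change 0.36), and lost its call without minus Dox replicate 2 (edgeR adjusted p = 0.174) or plus Dox replicate 2 (0.179). KDM2A (0.12) and KDM2B (0.14), which bind unmethylated CpG islands, were higher by little. KDM2A lost its call without plus Dox replicate 1 (0.245) or plus Dox replicate 2 (0.0780), and KDM2B lost it without any 1 of the 4 libraries (edgeR adjusted p from 0.0564 to 0.299). DESeq2 did not call KDM4D (adjusted p = 0.140), KDM8 (0.119), KDM2B (0.120) or KDM3B (0.0542).

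KDM1A (LSD1), the H3K4 demethylase of the CoREST complex, fell from 171 and 175 CPM to 131 and 124 CPM, a log2 fold change of −0.44 (SE 0.04, edgeR adjusted p = 7.47e-11). KDM3A, a hypoxia-inducible H3K9 demethylase, went from 43.2 and 42.5 CPM to 31.5 and 30.2 CPM (−0.47, edgeR adjusted p = 1.21e-07). Both were lower in every setting tried. KDM3B was lower by little (−0.10, edgeR adjusted p = 0.0336). It was called higher with library size only (0.12) and with the trend removed (0.18), and lost its call without minus Dox replicate 2 (0.0863) or either plus Dox library (edgeR adjusted p = 0.184 and 0.230).

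The other 8 tested demethylases, KDM1B, KDM4A, KDM4B, KDM4C and the KDM5 genes, did not pass. Log2 fold changes of KDM5A, KDM5B and KDM5C were 0.05, −0.03 and 0.08, none past the threshold. All 3 were called higher with library size only (0.27, 0.19 and 0.29), and so they were after the trend correction, at 0.13, 0.12 and 0.35 (edgeR adjusted p = 9.29e-17 for KDM5C). KDM5C also passed without minus Dox replicate 2 (edgeR adjusted p = 0.0150). After the trend correction KDM4B was called higher (0.14) and KDM1B lower (−0.17). The Y-linked KDM5D is counted here without its values. KDM4A shares 40.2% of its exon bases with an overlapping gene on the same strand, so its level is uncertain.

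The DNA around annotated transcript starts of the members was searched for the AP-1 motif TGACTCA on both strands, so that TGAGTCA counts as well, because A-FOS acts on AP-1. RefSeq promoters of 300 bases (GRCh38.p14, 250 bases before to 50 after a transcript start) were at hand for 62 of the 69 members, in 91 starts. The motif lay in 3 of these 91 (3.3%), against 4.95% of all 35116 promoters. The 3 genes had different outcomes: KDM3A fell, KDM6A rose and KDM4C did not pass (−0.06). They are shown to let a reader see the motif in capitals in its context, which is a match of letters and not a site shown to be bound.
KDM3A (chr2:86441211-86441510, plus strand): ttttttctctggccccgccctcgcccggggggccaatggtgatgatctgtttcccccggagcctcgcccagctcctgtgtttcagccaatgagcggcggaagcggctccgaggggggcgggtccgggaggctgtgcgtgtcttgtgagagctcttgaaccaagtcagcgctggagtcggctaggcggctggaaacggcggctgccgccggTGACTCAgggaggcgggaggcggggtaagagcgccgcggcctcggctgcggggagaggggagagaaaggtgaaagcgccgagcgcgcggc
KDM6A (chrX:44872938-44873237, plus strand): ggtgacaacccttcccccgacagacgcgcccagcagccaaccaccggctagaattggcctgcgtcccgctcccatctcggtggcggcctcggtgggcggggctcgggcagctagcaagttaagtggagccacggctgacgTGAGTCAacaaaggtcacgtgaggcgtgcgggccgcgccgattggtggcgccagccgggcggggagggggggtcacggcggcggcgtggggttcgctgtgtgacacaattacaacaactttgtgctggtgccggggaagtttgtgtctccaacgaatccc
KDM4C (chr9:6757723-6758022, plus strand): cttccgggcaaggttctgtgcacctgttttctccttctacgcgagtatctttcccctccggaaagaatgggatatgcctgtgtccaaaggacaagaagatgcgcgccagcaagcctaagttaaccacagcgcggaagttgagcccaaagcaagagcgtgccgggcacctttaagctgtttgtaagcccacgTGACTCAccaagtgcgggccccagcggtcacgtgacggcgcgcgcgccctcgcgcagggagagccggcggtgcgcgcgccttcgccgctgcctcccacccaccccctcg
The motif begins 40 bases before the start in KDM3A, 110 bases before it in KDM6A and 59 bases before it in KDM4C. For KDM3A and KDM4C the start is an internal one, downstream of the first base of the gene in GENCODE 29 (86440647 and 6720863).

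Of 11 deacetylases 3 rose and 3 fell. HDAC1 and HDAC2, the class I enzymes shared by the SIN3, NuRD and CoREST corepressor complexes, both rose. HDAC1 had 105 and 107 CPM in minus Dox and 132 and 132 CPM in plus Dox (log2 fold change 0.31, edgeR adjusted p = 1.79e-07). HDAC2 had 134 and 131 CPM against 164 and 157 CPM (0.28, edgeR adjusted p = 7.88e-07), and 0.08 after the trend correction. The class I enzymes HDAC3 and HDAC8 did not pass, at 0.05 and 0.14, though HDAC3 was called higher after the trend correction (0.16) and both with library size only.

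Of 4 class IIa deacetylases, which are moved between nucleus and cytoplasm by kinases and bind MEF2 factors, HDAC7, HDAC4 and HDAC5 were called lower. HDAC7 (ENSG00000061273, chromosome 12, 47782722 to 47833132) had 145 and 159.6 CPM without and 86.2 and 89.3 CPM with doxycycline. Its log2 fold change of −0.80 (SE 0.05, edgeR adjusted p = 1.74e-16) was the largest fall of any member with TMM scaling. HDAC4 fell from 37.98 and 35.7 CPM to 26.3 and 25.1 CPM (−0.52, edgeR adjusted p = 8.75e-08). HDAC5 was lower by 0.19 with TMM, lay at 0.03 with library size only, and lost its call without minus Dox replicate 2 (edgeR adjusted p = 0.442) or either plus Dox library (0.185 and 0.111). HDAC9 had 1.18 ± 0.383 and 1.59 ± 0.240 CPM (SD, n = 2) and did not pass. This grouping by class was made after the values were seen.

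Of the remaining deacetylases the tubulin deacetylase HDAC6 did not pass (−0.13, edgeR adjusted p = 0.0534). It was called lower without minus Dox replicate 1 (edgeR adjusted p = 0.00187). HDAC11 was higher by 0.23, a call lost without minus Dox replicate 1 (0.207) or plus Dox replicate 2 (edgeR adjusted p = 0.444). DESeq2 called neither HDAC5 (adjusted p = 0.138) nor HDAC11 (0.155). HDAC10 did not pass (−0.08), and 55.8% of its exon bases are shared with MAPK12 on the same strand.

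All 7 sirtuins, the NAD-dependent deacylases, passed with TMM scaling, 3 higher and 4 lower. The background of calls was 56.9% of all tested genes and 65.5% of tested protein-coding genes. With library size only 3 sirtuins were higher and 2 lower. SIRT4, a mitochondrial enzyme (ENSG00000089163, chromosome 12, 120302316 to 120313249), had 2.40 and 1.89 CPM without and 4.55 and 5.04 CPM with doxycycline. Its log2 fold change of 1.16 (SE 0.19, edgeR adjusted p = 2.22e-06) rests on 71 to 169 counts per library. SIRT2, mainly a cytoplasmic tubulin deacetylase, had 63.7 and 67.9 CPM against 108 and 109 CPM (0.72, SE 0.05, edgeR adjusted p = 8.96e-15). SIRT1, the nuclear deacetylase of p53 and histones, rose from 34.8 and 36.5 CPM to 49.3 and 46.9 CPM (log2 fold change 0.43) and by 0.24 after the trend correction.

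The 4 sirtuins that were lower include nuclear and mitochondrial enzymes. SIRT6, which deacetylates H3K9 and H3K56, fell from 26.1 and 25.8 CPM to 16.8 and 16.4 CPM, a log2 fold change of −0.64 (edgeR adjusted p = 1.55e-08). SIRT7, the nucleolar H3K18 deacetylase, fell from 48.4 and 48.5 CPM to 35.7 and 35.3 CPM (−0.45, edgeR adjusted p = 1.19e-07). Both kept their call in every setting tried. The mitochondrial SIRT3 fell from 25.9 and 27.7 CPM to 22.5 and 21.7 CPM and SIRT5 from 15.7 and 15.02 CPM to 12.8 and 9.84 CPM, at −0.28 and −0.44 on the log2 scale. With library size only SIRT3 lay at −0.07 and SIRT5 at −0.22, neither past the threshold, and SIRT5 lost its call without plus Dox replicate 2 (−0.26, edgeR adjusted p = 0.0866).

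A promoter of SIRT4, the member with the largest change, holds the CRE motif TGACGTCA, which CREB, ATF and some AP-1 dimers bind. It is the only match among the 91 member starts (1.1%), against 1.85% of all promoters, and it is shown for that reason with the motif in capitals.
SIRT4 (chr12:120291939-120292238, plus strand): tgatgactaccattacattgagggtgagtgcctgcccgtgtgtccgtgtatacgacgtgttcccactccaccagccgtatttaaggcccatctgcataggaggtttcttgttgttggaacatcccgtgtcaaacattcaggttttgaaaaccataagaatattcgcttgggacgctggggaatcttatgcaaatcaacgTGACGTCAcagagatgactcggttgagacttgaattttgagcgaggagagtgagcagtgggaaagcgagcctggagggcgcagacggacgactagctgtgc
The motif begins 51 bases before this RefSeq start. The start lies far upstream of the first base of the gene in GENCODE 29 (120302316), outside the gene as annotated there. The counts are per gene and do not say which start was used.

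**Figure D5:**
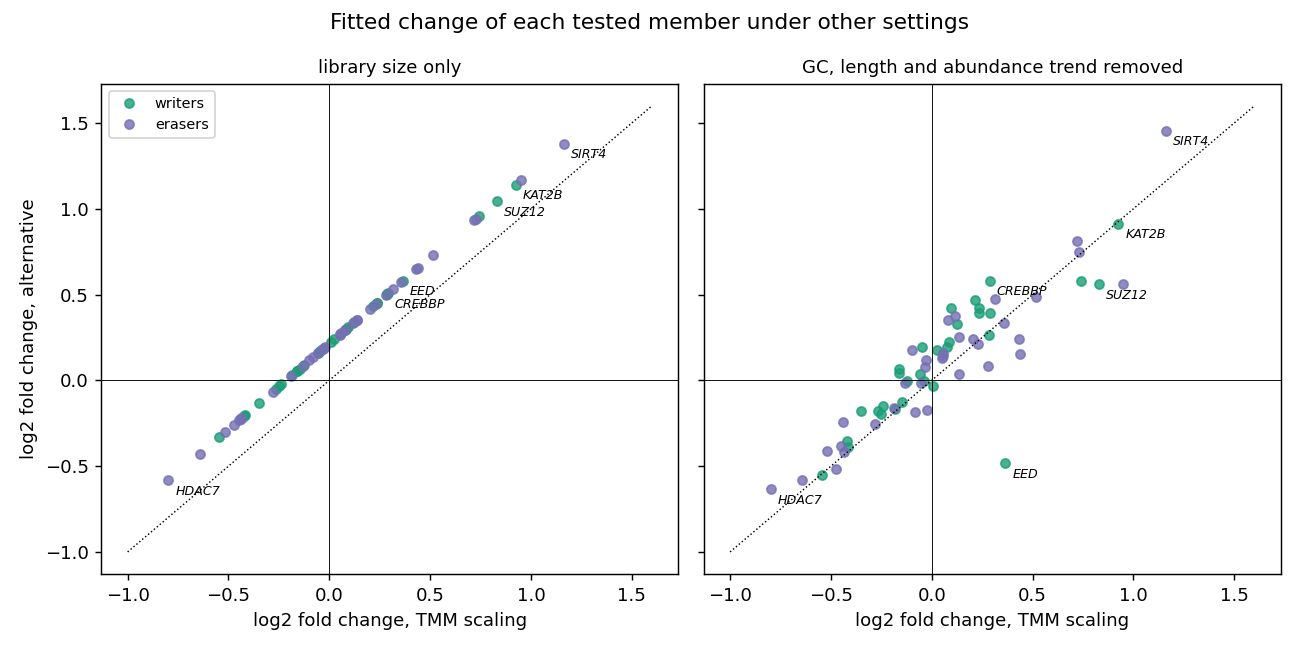
Log2 fold change of each tested member with TMM scaling (horizontal axis) against that with library size only (left) or after correction for GC content, length and abundance (right); the dotted line marks equal values. The Y-linked KDM5D is not drawn. Library size only shifts the members by about 0.22 without changing their order. The trend correction scatters them, with EED going from 0.37 to −0.48.

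The partners of these enzymes also held calls in both directions. Among 12 tested COMPASS subunits 5 rose and 6 fell (91.7% called, median −0.05), with the SET1 subunit CXXC1 down from 48.1 to 35.0 CPM and the core subunit DPY30 up from 31.4 to 44.3 CPM. PSIP1 (LEDGF), which tethers KMT2A to chromatin, rose from 96.6 to 148 CPM. Of 17 tested Polycomb partners 6 rose and 3 fell (median 0.09). BMI1, a core subunit of Polycomb repressive complex 1, had the largest rise of those named, from 20.3 ± 0.0516 to 52.9 ± 1.17 CPM (log2 fold change 1.38, edgeR adjusted p = 4.91e-19). PHF19, which brings PRC2 to H3K36-methylated chromatin, went from 148 ± 0.0362 to 74.1 ± 0.402 CPM (SD, n = 2), and PHC2 from 94.2 to 52.9 CPM.

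Among 21 corepressor subunits that carry deacetylases 5 rose and 7 fell (median −0.03), with log2 fold changes from −1.23 to 1.59. The corepressor subunit TBL1X fell from 86.8 ± 1.17 to 37.0 ± 0.436 CPM and the NuRD helicase CHD3 from 544 to 390.4 CPM (SD, n = 2). Of 25 acetyltransferase complex subunits 7 rose and 6 fell (median −0.02), and the subunits with the lowest adjusted p, KANSL3, EP400 and JADE1, fell by 0.40, 0.33 and 0.42 on the log2 scale. Histone methyltransferases outside the member list were mostly lower where called, with 8 of 19 down and 3 up (median −0.09). They include the H3K36 enzyme NSD2 (246 to 184 CPM) and the H3K9 enzyme EHMT2 (45.4 to 30.9 CPM), and SMYD5 (80.03 to 60.5 CPM). The balance of several lists turned with library size only, with 10 of the methyltransferases outside the member list up and 4 down. Corepressor subunits then had 12 up and 3 down, COMPASS subunits 7 and 1, and acetyltransferase complex subunits 15 and 3. With the trend of GC content, length and abundance removed, 5 of these methyltransferases were up and 6 down (median 0.035). In the same order the other lists then had 9 and 5, 6 and 4, and 10 and 6.

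Among 7 other demethylase genes 3 fell, HR and RIOX2 among them (−0.78 and −0.53), and 2 rose, JMJD1C among them (0.32). Of 16 readers of acetyl and methyl marks 6 rose and 1, the KRAB corepressor TRIM28 (985 to 778 CPM), fell. PHF6 and TRIM33 rose by 0.57 and 0.51 on the log2 scale. The shares called in these 7 lists ran from 43.8% to 91.7%, around the background of 56.9%, and the lists were not tested as lists.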

How the data were processed

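The deposited tables hold raw counts of reads per gene in 4 polyA RNA-seq libraries of A549, which the authors made with featureCounts 2.0.3, per the file headers. The submitters' processing notes also name DRAGEN, cutadapt 4.0, STAR 2.7.10b, DESeq2 2.11.40.7 and hg38, without their roles. The annotation release, strand setting and treatment of multiply mapped reads were not given in the sources used, so overlapping genes are uncertain. Groups came from the labels. The counts were tested with edgeR 4.0.16 in R 4.3.3 (limma 3.58.1), with TMM scaling, filterByExpr, the quasi-likelihood test over 18046 genes and Benjamini-Hochberg adjustment, at a threshold of 0.05. CPM per kilobase used union exon lengths of GENCODE 29, in which 57447 of the 58051 genes were found. A 3-count floor corresponded to 0.0740 to 0.0964 CPM. DESeq2 1.42.0 and other scalings, filters, corrections and left-out libraries were alternatives. Libraries of a group differed by more than sampling noise, with a chi-square per degree of freedom of 4.13 and 2.25, so none was counted as a duplicate.

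Every member could be named with group values. Library values were given for called members among the 12 largest rises or 12 largest falls and for 5 paralog pairs. Up to 3 genes with the lowest adjusted p were named per partner list. The members and lists were chosen with earlier results of these data known. The level of the Y-linked KDM5D is not printed.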

Additional observations from a re-analysis of the deposited data

How the results depend on the processing

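Relative log expression scaling changed no call or direction of the 66 members checked singly, and DESeq2 ended 6 calls and reversed none. With library size only, 41 members were higher and 9 lower (18 and 3 writers, 23 and 6 erasers), with medians of 0.22 for writers and 0.27 for erasers. The directions then reversed for KMT2E (0.033), SETD5 (0.054), EZH1 (0.16), KMT2B (0.056), KMT2A (0.17), SETD9 (0.068), SETD1A (0.092), HDAC6 (0.085), SETD2 (0.18), HDAC10 (0.13), KDM1B (0.19), KDM3B (0.12), KDM5B (0.19), KDM4C (0.16), KDM4A (0.18) and HDAC5 (0.027), through the shift of 0.22 common to all genes. After correction for GC content, length and abundance, 34 members were higher and 19 lower, the medians were 0.069 for writers and 0.12 for erasers, and SETD5 (0.069), KDM5B (0.12), KMT2A (0.19), KMT2B (0.042), KDM3B (0.18), KDM4A (0.077), EED (−0.48), EZH1 (0.040) and EZH2 (−0.033) reversed; the cause was not tested. Without the filter the medians were −0.0034 for writers and 0.041 for erasers, and EZH2 lay at −0.0034.

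Leaving out 1 library at a time gave 18 to 24 members higher and 15 to 23 lower, 10 to 13 writers higher and 7 to 12 lower, and 8 to 11 erasers higher and 7 to 11 lower. The medians ranged from −0.021 to 0.022 for writers and from 0.0074 to 0.077 for erasers. Members near 0 changed sign: EZH2 (−0.025 to 0.022), KDM1B (−0.067 to 0.0034), HDAC3 (−0.0062 to 0.097), KAT6B (−0.016 to 0.17), SETD9 (−0.46 to 0.21), KDM5B (−0.078 to 0.0026), KAT7 (−0.021 to 0.065), EZH1 (−0.19 to 0.074) and KDM4A (−0.10 to 0.021). A lone library is assumed to vary like the other group. The labels do not say whether libraries with the same replicate number belong together. Deviations of those numbered 1 correlated at 0.0023, so no shared shift was seen, which cannot exclude that they were made together. A replicate block gave 25 members higher and 22 lower, adding KMT2D (0.10, adjusted p = 0.0281) and HDAC6 (−0.13, 0.0396). With 2 libraries a group, small changes such as those of KDM2B are within reach of 1 library.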

Other observations

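Of 24 loci outside the protein-coding genes whose symbols match the same patterns, HDAC4-AS1, an antisense transcript of HDAC4, was lower in plus Dox, at 0.911 and 0.346 CPM in the group means (log2 fold change −1.38, SE 0.48, edgeR adjusted p = 0.0131). Its exons overlap those of HDAC4, which fell as well, over 0.756% of the exon bases of HDAC4. Without a stated strand setting reads in the shared bases cannot be told apart, so the level of HDAC4-AS1 is uncertain. KDM7A-DT, a divergent transcript beside KDM7A, did not pass (0.49, edgeR adjusted p = 0.0775).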
